A study of Mus musculus with 16 samples.

Results

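Ddit3, Ddit4, Atf3, Stc2, Slc1a4, Sqstm1 and Gadd45b are output genes of the integrated stress response, and their transcripts were followed in ventricles of mouse embryos labelled as cardiomyocyte-specific Atf4 knockout (cKO) or control. The rows of the TPM table whose symbol is one of these 7 names were taken, and each name had exactly 1 row among the 5921 gene rows used. RNA was sequenced from ventricles at E11.5 in 4 libraries of each of 4 groups. In the exon 2-3 line (batch 1) the cKO carries an Atf4 allele with loxP sites around exons 2 and 3, in the exon 2 line (batch 2) around exon 2 alone, and in both the recombinase is Xmlc2-Cre, which is described as acting in cardiomyocytes only. By that description other ventricular cells would keep Atf4, which was not measured. Each line has its own control group, and whether those controls carry the floxed allele or Cre is not stated. The genotype label reads C57BL/6 WT for all 16 libraries, so group came from the sample titles.

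The integrated stress response begins when kinases that sense amino acid shortage, unfolded protein, haem shortage or viral RNA phosphorylate the translation factor eIF2. General translation then drops, while the mRNA of the transcription factor ATF4 is translated more. ATF4 binds composite C/EBP-ATF elements and switches on genes for amino acid uptake and synthesis, for further stress transcription factors and for brakes on growth. In the heart this programme is best known from mitochondrial dysfunction, where ATF4 targets of one-carbon metabolism are induced.

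Promoters are shown for Slc1a4 and Atf3, which hold the core of the ATF4 element, and for Stc2 and Ddit4, whose changes the results turn on and which do not. All 7 matched a RefSeq promoter (GRCm38.p6, 250 bases before to 50 after the start). The sequences below run 5' to 3' on the minus strand, which carries these genes, and capitals mark the element core, searched as TGATGNAA on both strands. The stretches of Stc2 and Ddit4 have none.

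Slc1a4, chr11:20332710-20332963: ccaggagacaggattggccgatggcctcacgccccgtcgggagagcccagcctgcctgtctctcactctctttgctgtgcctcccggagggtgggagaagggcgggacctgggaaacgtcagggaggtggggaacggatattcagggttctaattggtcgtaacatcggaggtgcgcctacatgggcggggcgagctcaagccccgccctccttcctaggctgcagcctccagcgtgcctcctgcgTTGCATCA

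Atf3, chr1:191183334-191183583: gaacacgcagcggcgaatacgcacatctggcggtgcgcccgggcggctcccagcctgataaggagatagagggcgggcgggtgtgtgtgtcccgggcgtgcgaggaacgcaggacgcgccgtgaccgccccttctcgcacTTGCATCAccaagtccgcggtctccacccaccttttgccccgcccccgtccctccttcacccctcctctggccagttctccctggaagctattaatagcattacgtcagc

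Stc2, chr11:31370062-31370311: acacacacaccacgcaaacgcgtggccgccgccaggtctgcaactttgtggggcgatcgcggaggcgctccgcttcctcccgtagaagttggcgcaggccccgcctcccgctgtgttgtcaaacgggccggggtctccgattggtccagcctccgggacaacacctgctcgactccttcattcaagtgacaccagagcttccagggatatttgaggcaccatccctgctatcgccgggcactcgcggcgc

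Ddit4, chr10:59951771-59952020: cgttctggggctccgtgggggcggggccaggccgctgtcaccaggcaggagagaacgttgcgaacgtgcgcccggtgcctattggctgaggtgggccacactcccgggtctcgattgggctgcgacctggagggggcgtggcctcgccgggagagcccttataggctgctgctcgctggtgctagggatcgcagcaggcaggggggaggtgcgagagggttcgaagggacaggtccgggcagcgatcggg

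The same octamer, TTGCATCA, stood in Slc1a4 from base -4, so that it spans the start site, and in Atf3 from base -110. The core was present in 3.97% of the 32851 RefSeq promoters searched, and in 2 of these 7. Its letters were not in the window of Ddit3, Ddit4, Gadd45b, Stc2 or Sqstm1. The ATF/CREB octamer TGACGTCA, found in 1.79% of promoters, was in none of the 7. The antioxidant response core TGACNNNGC, found in 12.4%, was present once, in Stc2 from base 9 after the start, outside the stretch shown. These matches are descriptions of letters, and binding was not measured.

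As TPM corrects for transcript length, levels can be compared between genes. Over the 16 libraries Sqstm1 was the most abundant at a mean of 120.3 TPM, above 92.3% of the 2620 genes tested. Ddit4 followed at 32.4 TPM, then Gadd45b (above 56.3% of genes), Atf3 at 17.0 and Ddit3 at 13.8 TPM. Stc2 (7.25 TPM) and Slc1a4 (6.51 TPM) were the lowest, and in the exon 2-3 controls their ranges overlapped (4.81 to 6.43 and 4.53 to 5.97 TPM). The ranges of Gadd45b (18.7 to 21.6 TPM) and Atf3 (15.7 to 18.3 TPM) did not overlap there, and that of Ddit3 (9.99 to 13.7 TPM) lay below both. All 7 passed the filter of a mean of 1 TPM or more.

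The table covers chromosomes 1 and 10 and part of 11, 15.2% to 17.1% of each library's TPM, so Atf4 itself was not analysed here and the direction of each effect rests on the labels. Libraries of a group correlated across genes with r between 0.982 and 0.992. One protocol text names cultured cortical neurons, and the 3 neuronal markers held (Map2, Syt1, Mapt) summed to at most 2.40 TPM per library, against at least 12510 TPM for 6 cardiomyocyte markers. Replicate 3 of the exon 2-3 controls was the lowest of its group for 6 of the 7 genes, Atf3 being the exception. Its median over all genes tested was also the lowest, 3.83 against 3.98 to 4.03 on the log2(TPM + 1) scale in the other 3 controls.

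**Figure D1:**
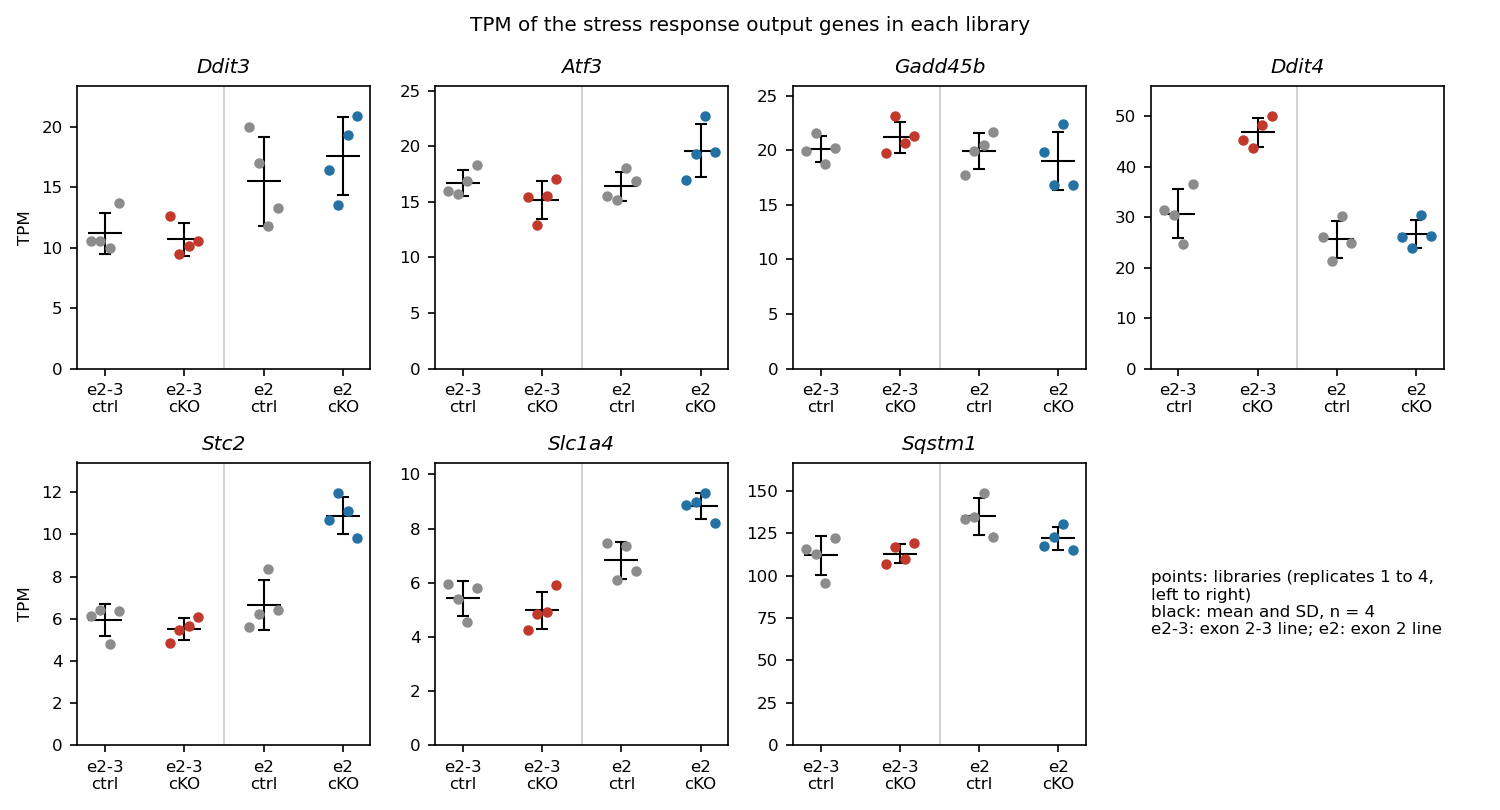
TPM of each of the 7 genes (vertical axes, from 0) in the 16 libraries, by group; points are libraries and black marks give the mean and SD of 4. Ddit4 stood apart in the exon 2-3 cKO (43.7 to 49.98 TPM), and Stc2 (9.82 to 12.0 TPM) and Slc1a4 (8.19 to 9.32 TPM) in the exon 2 cKO.

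Ddit4 rose in the exon 2-3 cKO, and none of the other 6 genes was called there. Stc2 and Slc1a4 were higher in every exon 2 cKO library than in any exon 2 control, short of the threshold. Of all genes, 1.83% were separated in that line, in either direction. Log2(TPM + 1) values were fitted line by line with limma, and a gene was called at a p of at most 0.05 after adjustment over the 2620 genes. In the exon 2-3 line 1 of the 7 genes was called, where 6.72% of all genes were. Their median log2 fold change was -0.055, and that of all genes 0.032. In the exon 2 line none was called, where 0.0763% of all genes (2 genes) were, and 4 of the 7 had an unadjusted limma p under 0.05, as did 84 of all genes. The median of the 7 was 0.177 in that line, beside -0.012 for all genes.

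Ddit4 encodes REDD1, a stress-induced inhibitor of the growth kinase complex mTORC1, and lies on chromosome 10 (59949675 to 59951770, minus strand). The 4 exon 2-3 control libraries had 31.4, 30.3, 24.7 and 36.5 TPM, and the 4 cKO libraries had 45.3, 43.7, 48.2 and 49.98 TPM. Every cKO library was above every control, a separation that 14.5% of all genes showed in this line in one direction or the other. The mean was 30.7 ± 4.82 TPM in controls and 46.8 ± 2.82 TPM in the cKO (SD, n = 4), a rise of 1.52-fold. On the log2 scale the change was 0.60 with a standard error of 0.10 (adjusted p 0.0105 by limma), rank 46 from the top of the 2620 genes. In the exon 2 line the controls had 26.1, 21.2, 30.2 and 24.9 TPM and the cKO libraries 26.04, 23.9, 30.5 and 26.2 TPM, so the groups overlapped. The log2 fold change there was 0.06, with a 95% interval from -0.17 to 0.30 (limma adjusted p 0.999).

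Ddit4 stayed called whichever library of the exon 2-3 line was omitted, with a log2 fold change from 0.51 to 0.69 and a limma adjusted p of at most 0.0381. Without control replicate 3, the low library, it was 0.51 (limma adjusted p 0.00898). It lost its call once all expressed rows were kept (limma adjusted p 0.0541). Summed TPM of 6 epicardial and fibroblast markers moved in the same direction, from 325 to 369.6 TPM in the controls to 481 to 527 TPM in the cKO. The sum of 6 cardiomyocyte markers was 16997 to 18467 and 16492 to 17479 TPM. Within it Tnni1 (2772 to 3252 TPM in controls, 1556 to 2743 in cKO) and Hand1 (55.6 to 71.5 and 36.3 to 45.1 TPM) were lower in the cKO without overlap, and the other 4 overlapped. The erythroid sum was 2995 to 4555 and 1512 to 11294 TPM. The part of these markers in the rise of Ddit4 was not tested. In bulk tissue fewer cells of a type and less RNA per cell cannot be told apart.

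Genes described as p53 targets also rose in this line, in a list chosen with these results known. Of the 8 tested 7 were called, where 6.72% of all genes were. Zfp365 had the largest log2 fold change of them, 1.65, and Ccng1, at 1.52, the smallest limma adjusted p (5.32e-08). Phlda3, Btg2 and Ercc5 rose by 1.13, 0.82 and 0.81 (limma adjusted p at most 0.000298). In the exon 2 line none of the 8 was called, with 1 at an unadjusted limma p under 0.05, Perp, which was lower in the cKO (-0.15). Ddit4 and Atf3 are both known to respond to p53 as well, and the part of p53 in their values was not tested. Sesn1, a p53 target that restrains mTORC1 as Ddit4 does, was not called (-0.12, limma adjusted p 0.368).

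Stc2 encodes stanniocalcin 2, a secreted glycoprotein induced by ATF4 that is known to restrain the release of insulin-like growth factors (chromosome 11, 31359441 to 31370061, minus strand). In the exon 2 line its controls had 5.63, 6.22, 8.35 and 6.39 TPM and its cKO libraries 10.7, 12.0, 11.1 and 9.82 TPM. All 4 cKO libraries lay above all 4 controls, as was the case, in either direction, for 1.83% of all genes, and control replicate 3 was the nearest to them. The controls averaged 6.65 ± 1.18 TPM and the cKO 10.9 ± 0.894 TPM (SD, n = 4), a ratio of 1.64. The log2 fold change of 0.65 (95% interval 0.40 to 0.90) ranked ninth from the top of the 2620 genes, yet it did not pass the threshold (limma adjusted p 0.0951). It passed in 2 of 16 alternatives, without control replicate 3 (0.75, limma adjusted p 0.0095) and in a fit over all 16 libraries (limma adjusted p 0.0217). In the other alternatives the limma adjusted p of Stc2 ran from 0.069 (median centring) to 0.494 (no filter on low values). In the exon 2-3 line the controls had 6.15, 6.43, 4.81 and 6.34 TPM and the cKO libraries 4.83, 5.45, 5.64 and 6.10 TPM, which overlapped (log2 fold change -0.09, limma adjusted p 0.683).

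Slc1a4, on chromosome 11 (20302180 to 20332713, minus strand), encodes ASCT1, a neutral amino acid transporter of serine and alanine. Its exon 2 controls had 7.45, 6.09, 7.34 and 6.41 TPM, below all of the cKO libraries at 8.85, 8.98, 9.32 and 8.19 TPM. In this line 1.83% of all genes were separated in one direction or the other. The ratio of means of Slc1a4 was 1.29 (log2 fold change 0.33, 95% interval 0.14 to 0.53), without passing the threshold (limma adjusted p 0.703). Exon 2-3 controls had 5.97, 5.38, 4.53 and 5.81 TPM and the cKO libraries 4.24, 4.85, 4.91 and 5.91 TPM, with overlap (log2 fold change -0.10, limma adjusted p 0.651). The controls of the exon 2-3 line lay below those of the exon 2 line without overlap. The library medians over all genes tested did so too, at 3.83 to 4.03 and 4.07 to 4.19 on the log2(TPM + 1) scale. The share of genes with such a separation between the controls was not counted, and line cannot be told apart from batch here. The summed epicardial and fibroblast markers overlapped between the exon 2 groups (477 to 653 TPM in controls, 460 to 595 TPM in cKO), as did the cardiomyocyte sums (12510 to 14606 and 12886 to 13975 TPM).

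The 3 transcription and signalling outputs were not called in either line. Ddit3 encodes CHOP, a bZIP factor that promotes death under lasting stress (chromosome 10, 127290793 to 127296291, plus strand). Its exon 2 controls had 20.03, 17.0, 11.8 and 13.3 TPM and the cKO libraries 16.5, 13.6, 19.3 and 20.9 TPM, the widest SD relative to the mean within each of these groups among the 7 genes. The log2 fold change was 0.18 with a 95% interval from -0.19 to 0.54 in that line, and -0.05 (-0.31 to 0.20) in the exon 2-3 line. There the controls had 10.5, 10.6, 9.99 and 13.7 TPM and the cKO libraries 12.7, 9.51, 10.2 and 10.6 TPM. The ends of the Ddit3 row overlap Mbd6 by 77 bases and Mars1, itself an ATF4 target, by 71 bases, both on the other strand. No source says if reads were counted by strand, so its values are uncertain. Mars1 averaged 34.6 to 51.4 TPM over the 4 groups. Its log2 fold change had the sign of Ddit3 in each line, -0.20 in the exon 2-3 and 0.27 in the exon 2 line. It was called in neither (limma adjusted p 0.217 and 0.876). Mbd6 had the opposite signs (0.09 and -0.01). The part of overlapping reads in the values of Ddit3 was not tested.

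Atf3 encodes a bZIP repressor and activator induced by ATF4 and by many acute signals (chromosome 1, 191170296 to 191183333, minus strand). Its exon 2 controls had 15.5, 15.1, 18.01 and 16.9 TPM and the cKO libraries 16.9, 19.3, 22.7 and 19.5 TPM. Of the 4 cKO libraries 3 lay above every control (log2 fold change 0.24, 95% interval 0.04 to 0.45, limma adjusted p 0.999). In the exon 2-3 line, with controls at 15.95, 15.7, 16.8 and 18.3 TPM, 3 of the cKO libraries lay below every control, at 15.4, 12.9 and 15.5 TPM, and replicate 4 had 17.0 TPM (log2 fold change -0.13, limma adjusted p 0.445). Among 3 tested genes of the immediate early class, which also answers to tissue handling, Btg2, a p53 target too, rose in the exon 2-3 line, while the other 2 were called in neither.

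Gadd45b encodes a small stress sensor that activates p38 and JNK signalling (chromosome 10, 80930091 to 80932204, plus strand). It was at 20.1 ± 1.18 TPM in exon 2-3 controls, 21.2 ± 1.42 in their cKO, 19.9 ± 1.65 in exon 2 controls and 19.0 ± 2.68 TPM in their cKO (SD, n = 4 each). Its 95% intervals ran from -0.08 to 0.23 in the exon 2-3 line and from -0.30 to 0.15 in the exon 2 line, on the log2 scale.

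Sqstm1 encodes p62, the autophagy receptor that also links to the antioxidant response (chromosome 11, 50200152 to 50210820, minus strand). In the exon 2 line its controls had 133, 134.9, 149 and 123 TPM and the cKO libraries 118, 123, 130.4 and 115 TPM. It was thus lower on average in the cKO, with overlap, and not called (log2 fold change -0.15, unadjusted limma p 0.0494, adjusted 0.999). This is the opposite sign to Stc2 and Slc1a4 in the same libraries. Exon 2-3 controls ranged from 95.6 to 123 TPM and the cKO libraries from 107 to 119 TPM (log2 fold change 0.02, 95% interval -0.15 to 0.19).

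The difference between the lines was tested as an interaction term over all 16 libraries, and 1 of the 7 genes was called, where 2.37% of all genes were. Stc2 had the term -0.74 (exon 2-3 minus exon 2; SE 0.16, 95% interval -1.07 to -0.40, limma adjusted p 0.0192). Omitting each of the 16 libraries in turn kept the call except for exon 2 cKO replicate 2 (limma adjusted p 0.0509). The terms of Ddit4 (0.54, 95% interval 0.21 to 0.87, limma adjusted p 0.0897), Slc1a4 (-0.44, -0.73 to -0.14, limma adjusted p 0.118) and Atf3 (-0.37, -0.65 to -0.09, limma adjusted p 0.168) did not pass. So the rise of Ddit4 was called in the exon 2-3 line alone, but its difference from the exon 2 line was not called in the fit described. With the replicate number as a block that difference was called (limma adjusted p 0.0299), as it was without exon 2-3 control replicate 4 (0.0341) or exon 2 control replicate 2 (0.0436). After quantile normalisation these 3 terms passed as well, with limma adjusted p-values of 0.0232, 0.00959 and 0.0479, and they also passed after median centring (0.0239, 0.0111 and 0.0476). Calls rose over the whole table under these settings, to 133 and 127 of 2620 genes, from 62 in the fit described. The terms of Ddit3 (-0.23), Gadd45b (0.15) and Sqstm1 (0.17) had intervals that include 0.

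**Figure D2:**
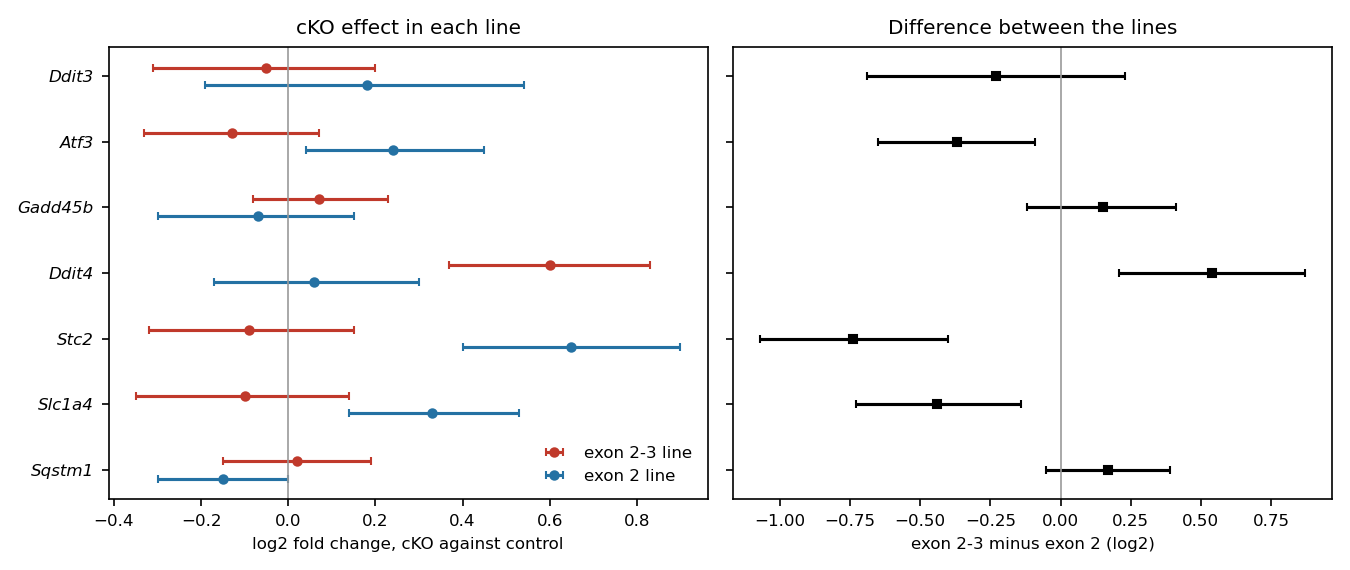
Log2 fold change of cKO against control with its 95% interval for each gene in the exon 2-3 line (red) and the exon 2 line (blue), at left, and the difference between the lines, at right. Ddit4 is apart on the right in red (0.60), Stc2 in blue (0.65), and the term of Stc2 (-0.74) lies farthest from 0.

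Among genes that act beside the 7, only those generally described as ATF4 targets held calls in both lines. Of 6 such genes tested, Aldh1l2 and Shmt2, mitochondrial enzymes of one-carbon metabolism, rose in the exon 2 cKO (log2 fold changes 0.82 and 0.64). They were the 2 genes called in that line among all 2620. All 6 were above 0 there with a median of 0.223, as were 1131 of all genes. Aldh1l2, by contrast, fell by 0.51 on the log2 scale in the exon 2-3 cKO, Shmt2 was at -0.20 without a call, and the median was -0.199. Only 1 of the 6, Xpot at 0.11, was above 0 in the exon 2-3 line, where 1533 of all genes were. The interaction terms of Aldh1l2 and Shmt2 were both called (-1.33 and -0.83). Stc2, Slc1a4, Atf3 and Ddit3 had the sign of these enzymes in each line. In the exon 2-3 line, though, the 95% interval of each of the 4 included 0. That of Ddit3 did in the exon 2 line too (-0.19 to 0.54), and its exon 2-3 value became 0.039 without control replicate 4. Ddit4 shared the sign of the enzymes in the exon 2 line alone, where its interval also included 0 (-0.17 to 0.3). Gadd45b and Sqstm1 had the opposite sign to the enzymes in each line. Their exon 2-3 values were 0.07 and 0.02, and their exon 2 values -0.07 and -0.15. Of these, only the exon 2 value of Sqstm1 had an unadjusted limma p under 0.05 (0.0494), and neither gene was called. These patterns were known when the list was written.

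The 3 lists on translation control, protein folding and autophagy held no called gene by limma in either line or in the difference between them. At an unadjusted p under 0.05 there was 1 gene each in the folding and autophagy lists, in the exon 2-3 line, where 552 of all 2620 genes were. Lists this short would hold few calls at the 6.72% of genes called in that line. The translation control list was represented only by Ppp1r15b, the constitutive subunit of the eIF2 phosphatase, and Eif2d, a separate factor of initiation. Their log2 fold changes were between -0.02 and 0.08. None of the listed eIF2 kinases or eIF2 subunits was in the table. Of 8 genes of the unfolded protein response of the endoplasmic reticulum, none was called, and the medians were 0.065 and -0.007 in the exon 2-3 and exon 2 lines. Ern1, which encodes the sensor IRE1, had the largest value, 0.30 in the exon 2-3 line (limma adjusted p 0.108), and Derl2, of the degradation channel, had 0.14. Of 8 genes of mTORC1 control and autophagy none was called either, with medians of -0.003 and -0.026. Atg16l1, an autophagosome factor, was at 0.24 in the exon 2-3 line (limma adjusted p 0.125), and Sesn1 at -0.12 and -0.13.

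**Figure D3:**
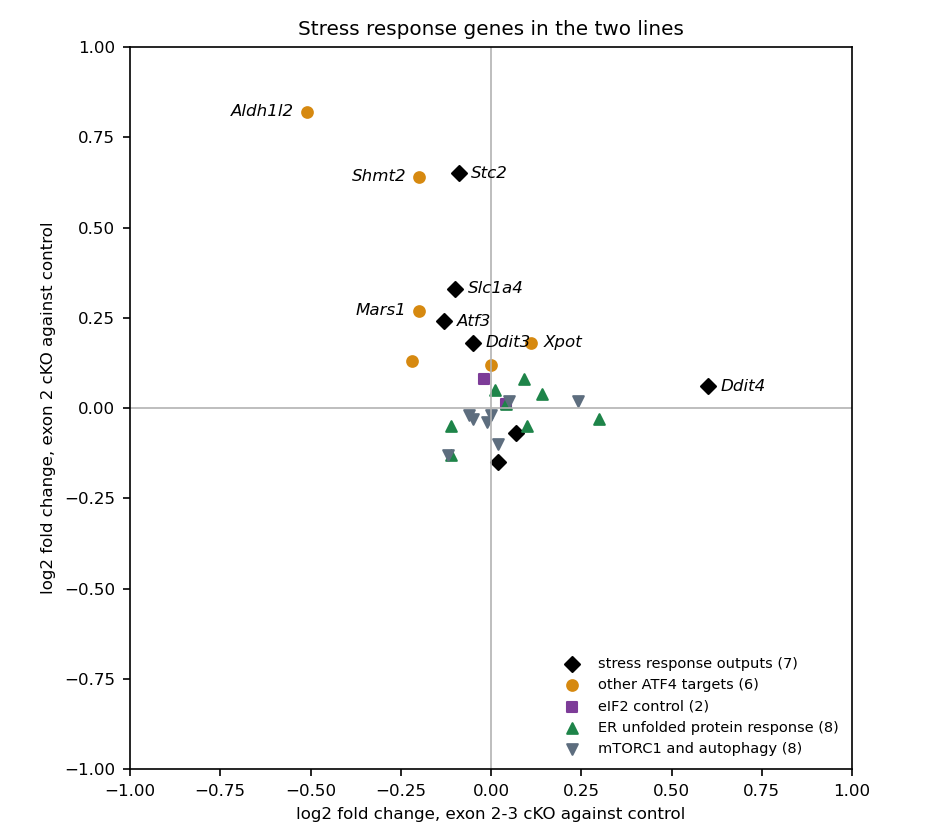
Log2 fold change in the exon 2-3 line (horizontal) against the exon 2 line (vertical) for the 7 genes (black) and the genes of 4 related lists, each point 1 gene. Stc2 and Slc1a4 lie left of 0 and above it, as Shmt2 does (-0.20, 0.64), Ddit4 alone at right (0.60, 0.06), and most other genes near 0.

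For each of the 7, the 3 genes with the most similar profile over the 16 libraries were found among all genes tested, after each library was set against the mean of its own line's controls. For Stc2 they were Shmt2 (Pearson's r 0.95), Slc1a4 (0.89) and Aldh1l2 (0.88). For Slc1a4 they were Shmt2 (0.92), Etaa1 (0.91), a gene of the replication stress response, and Stc2 (0.89). For Ddit4 they were Soat1 (0.96), a cholesterol esterifying enzyme, Plxnc1 (0.95), a semaphorin receptor, and Foxo3 (0.95), a stress transcription factor. All 3 were higher in the exon 2-3 cKO, by 0.44, 0.38 and 0.44 on the log2 scale. They were picked for a profile that holds the rise of Ddit4, so this is no separate result. Those of Sqstm1 were Dcaf6, Bsg and Cnot11 (r 0.85 to 0.90), and those of Atf3 were Rbm44, Casq1 and Aldh3a2 (0.78 to 0.82). For Ddit3 they were Pigw, Slc35b1 and Batf3 (0.73 to 0.79), and for Gadd45b Galnt4, Fzd2 and Per1 (all 0.79). These r are descriptions over libraries that share the cKO effect and the library's scale, and the genes were picked for them.

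Between the 7 genes themselves, the same measure gave r = 0.89 for Stc2 with Slc1a4, 0.75 for Atf3 with Stc2 and 0.73 for Atf3 with Slc1a4, all over 16 libraries. Ddit4 had r between -0.19 and 0.49 with the other 6. When each library was set against its own group's mean instead, which removes the cKO effect, Stc2 with Sqstm1 (0.77), Slc1a4 with Sqstm1 (0.76), Ddit4 with Slc1a4 (0.72) and Ddit4 with Sqstm1 (0.72) were the highest, and Ddit3 had no r above 0.17. Exon 2-3 control replicate 3 was lowest in its group for Ddit4, Stc2, Slc1a4 and Sqstm1 alike. The share of the library's overall scale in these r was not tested.

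**Figure D4:**
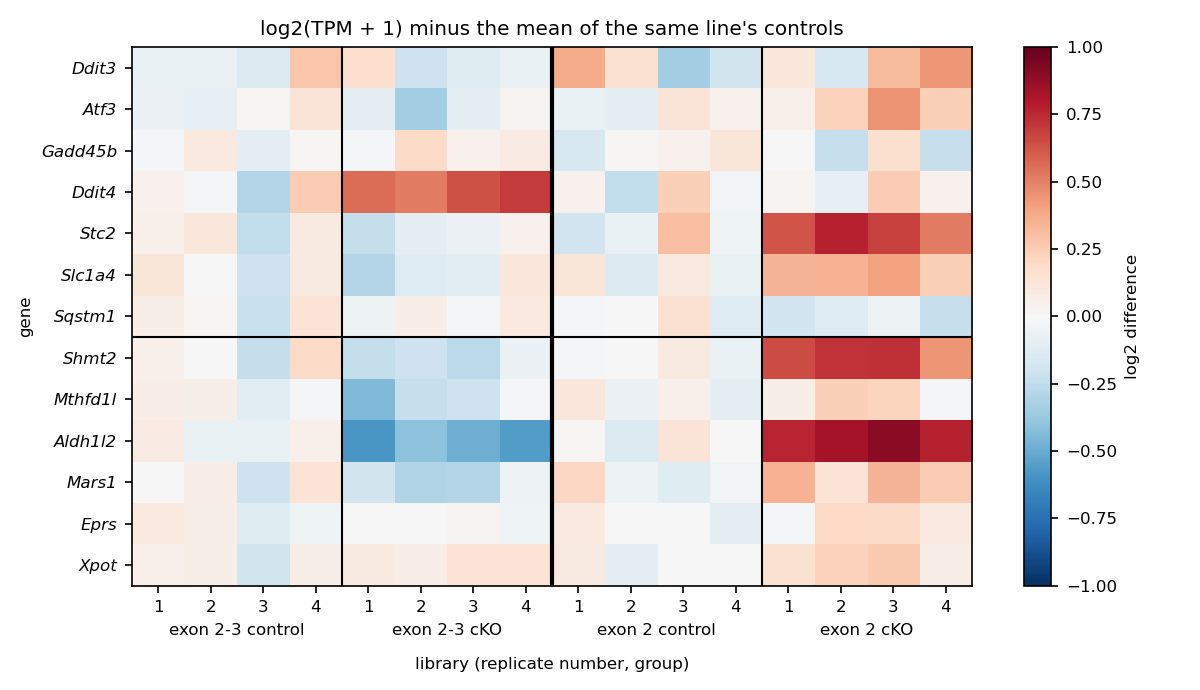
Colour gives log2(TPM + 1) of each library (columns) minus the mean of the same line's controls, for the 7 genes (upper rows) and 6 other ATF4 targets (lower rows). Ddit4 is red in all 4 exon 2-3 cKO libraries, Stc2, Slc1a4, Shmt2 and Aldh1l2 in all 4 exon 2 cKO libraries, and Aldh1l2 is blue in all 4 exon 2-3 cKO libraries.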

How the data were processed

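The values are TPM that the authors deposited in 1 table, a unit that scales each library to a fixed total and keeps no depth, so no counting interval is given. The design text gives 30 M to 70 M paired-end reads per library. The submitters' processing notes name Trim Galore 0.6.7, HISAT2 2.2.1, StringTie 2.2.1 and the build GRCm38, and which tool gave the TPM is not stated. The labels differ on library preparation (stranded mRNA or ribosomal depletion). An incomplete last line was left out. Of 5921 rows, 5919 had coordinates equal to those of RefSeq on GRCm38.p6.

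Columns were matched to samples by name. The 2620 genes averaging 1 TPM or more over all libraries were analysed as log2(TPM + 1), which understates changes of low genes, with limma 3.58.1 in R 4.3.3 (variance trend, two-sided, Benjamini-Hochberg over all genes tested), each line on its 8 libraries and the interaction on all 16. The procedure was tested on simulated data with independent noise for each value, which lack the library shifts seen here and so cannot speak to them. The 4 samples of a group are described as biological replicates.

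The genes and lists were chosen with earlier results of these data known. Named from each list were genes with a call (at most 5) or, with none, the 2 with the largest change. Of the lists, 6 of 59 ATF4 target symbols, 8 of 18 p53 targets, 2 of 17 eIF2 genes and 8 of 30 in each of the reticulum and autophagy lists were in the table. Alternatives were a pseudocount of 0.1, no filter, a minimum of 5 TPM, quantile normalisation, median centring, rescaling without hemoglobin genes, a fit over all libraries, a replicate block and leaving out each library.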

Additional observations from a re-analysis of the deposited data

Results flagged for a closer look

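Stc2 differed between the lines by the interaction term, with a log2 fold change in the exon 2-3 line minus that in the exon 2 line of -0.74 (limma adjusted p 0.0192). The term was called for 2.37% of all genes. All 4 exon 2 cKO libraries were above their controls, as 1.83% of all genes were separated there in either direction, while the exon 2-3 groups overlapped. The exon 2 change itself was not called (limma adjusted p 0.0951). Without exon 2 cKO replicate 2 the interaction term lost its call (limma adjusted p 0.0509).

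Ddit3 had 1 library far from the others of its group: exon 2-3 control replicate 4, at 13.7 TPM, with the other 3 controls between 9.99 and 10.6 TPM. The gap took 0.845 of the group's range, above Dixon's 95% critical value for 4 samples. It was the single such case in 28 groups of libraries, where chance gives about 1 in 20. Without that library the log2 fold change of Ddit3 in the line was 0.039 (limma adjusted p 0.854).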

How the results depend on the processing

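Of 385 values of the 7 genes under alternatives, 366 kept their direction and their side of the threshold. Of the 7, the number called in the exon 2-3 line was 0 with no filter and 1 (Ddit4) under every other alternative. In the exon 2 line it was 1 (Stc2) in the fit over all libraries, and between 0 and 1 with a library left out. For the difference between the lines it was 4 after quantile normalisation and after median centring, and between 0 and 2 with a library left out. Signs turned only in uncalled values near 0: Sqstm1 in the exon 2-3 line (-0.024 after median centring, -0.047 to 0.071 with a library left out), Ddit3 in the exon 2-3 line (-0.13 to 0.039) and Ddit4 in the exon 2 line (-0.021 to 0.14).

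Among all 2620 genes, 176 were called in the exon 2-3 line, 61.9% of them higher in the cKO. This became 95 with no filter, 343 (41.4% higher) after median centring, 311 (50.5%) after quantile normalisation, 272 on rescaling without hemoglobin genes, and 70 to 190 with a library left out. It was 70 to 100 without control replicate 1 or 2 or any of the cKO libraries, and 190 (44.7% higher) without control replicate 3. The exon 2 line had 2, 4 in the fit over all libraries, and 2 to 4 with a library left out (4 without control replicate 3). For the difference the count was 62 (67.7% more positive in the exon 2-3 line), 127 (52.0%) after median centring, 133 (53.4%) after quantile normalisation, and 36 to 84 with a library left out, under 42 without exon 2-3 cKO replicate 3, exon 2 control replicate 4 or exon 2 cKO replicate 2 or 4.

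Deviations of same-numbered cKO and control libraries correlated at -0.029 to 0.211 in the exon 2-3 line and 0.064 to 0.2 in the exon 2 line. The cKO library that correlated best with a control had the same number for exon 2 controls 1, 2 and 3. In the exon 2-3 line this held for control 4 only. The main fit did not take the libraries as paired. With the replicate block 149, 2 and 68 genes were called in the 3 comparisons, and of the 7 genes 2 for the difference (Ddit4, limma adjusted p 0.0299, beside Stc2). Read depth behind each TPM is unknown, and the causes of these shifts were not tested.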
